A study of Mus musculus with 16 samples.

Results

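The genes described here encode the machinery that brings proteins into mitochondria. They were taken from the deposited expression table as every gene whose symbol starts with Timm or Tomm and a digit, leaving out pseudogenes, which gave 22 genes, and 9 named partners were added (Samm50, Mtx1, Mtx2, Pam16, Dnajc19, Grpel1, Hspa9, Chchd4 and Gfer). This gave 31 of the 12012 genes in the table. The symbols Timm8a2, Timm29 and Tomm20l were not among the genes found. The choice used symbols and no measured value, but it was made with earlier results of these data known.

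The study asked how dietary valine alters ribosome occupancy in leukaemia in vivo. C57BL/6 mice received secondary transplants of NOTCH-ΔE leukaemia, a T cell leukaemia (T-ALL) made with an activated form of Notch, and were fed for 3 weeks. The diets held 0 g/kg valine (valine deficient), 0.4 g/kg or 0.8 g/kg (deficient diet with some valine returned), or 8 g/kg (control), and all groups shared strain, leukaemia model and transplant stage. The labels give these doses per kg of diet, while the protocol text speaks of 0.4 and 0.8 g/L in drinking water. Cells positive for GFP were sorted from spleen, and total RNA and ribosome-protected fragments (RPF, the mRNA pieces covered by ribosomes) were sequenced. Each diet had 2 libraries in each fraction, labelled T-ALL 2 and T-ALL 3, so there were 16 libraries. Whether the numbers stand for tumours or for animals is not in the labels, and each p-value therefore covers the spread among these libraries and nothing wider, which may be technical. Wherever a pair of values is given for a diet, T-ALL 2 comes before T-ALL 3.

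Almost all mitochondrial proteins are made in the cytosol and cross the outer membrane through the TOM complex. Proteins with a cleavable presequence then pass the TIM23 translocase into the matrix, pulled by a motor built around the chaperone Hspa9. Carrier proteins are escorted by small Timm chaperones to the TIM22 translocase, barrel proteins of the outer membrane are inserted by the SAM complex, and cysteine-rich proteins of the intermembrane space are trapped by a disulfide relay. In T-ALL cells, as in other dividing cells, this route supplies nearly all subunits of the respiratory chain.

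Reads, recovered from the steps between FPKM values, ranged from 364685 to 1269364 per total RNA library and from 41848 to 205545 per RPF library, so RPF values of single members rest on few reads. The RPF library with the fewest reads, 41848, was T-ALL 2 on 8 g/kg, where 44.6% of genes were at 0. The 6 T cell markers were read in every total RNA library, at 22.3 to 33.8 reads per 10000. Neutrophil markers (9 of 9 genes in the table) summed to 4.40 and 2.10 total RNA reads per 10000 on 0 g/kg, against 0.158 and 0.130 on 8 g/kg, where 2 and 6 of the 9 were at 0. Their total RNA sums were 0.323 and 0.696 on 0.4 g/kg, and 0.273 and 0.110 on 0.8 g/kg. In the RPF fraction they summed to 24.8 and 3.03 per 10000 on 0 g/kg, against 0.239 and 0.420 on 8 g/kg. Red cell markers (6 of 6 genes) ran the other way in total RNA, with 0.156 and 0.280 per 10000 on 0 g/kg, 1.02 and 0.763 on 0.4 g/kg, and 0.775 and 0.576 on 0.8 g/kg, against 1.63 and 4.04 on 8 g/kg. Of 4 B cell markers 1, Cd79b, was in the table. It was at 0 in every total RNA library and in RPF held 2 reads in 1 library on 0 g/kg and 1 read in a library on each of 0.4 and 0.8 g/kg, against 0 on 8 g/kg. The part of these other cells in the values below was not tested, and in such bulk samples fewer cells of a type and less RNA per cell cannot be told apart.

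Promoter sequences from RefSeq (build GRCm38.p6, 250 bases before to 50 after each gene's start) were found for 27 of the 31 genes. Hspa9, Timm21, Tomm40l and Tomm7 had no entry. A set of 6 letter patterns was searched on both strands, chosen after several other patterns had been looked at, so the shares below are descriptions. The NRF1 pattern, the core of sites for a regulator of respiratory genes, was found in 4 of 27 promoters (14.8%: Chchd4, Pam16, Timm8b and Tomm20), against 12.0% of 9122 promoters of genes in the table and 5.19% of 27025 promoters in all. The ETS family pattern CCGGAAGT was found in 5 of 27 (18.5%: Mtx2, Timm10, Timm10b, Timm23 and Tomm70a), against 9.43% in the table and 4.31% in all. The amino acid response pattern TGATGNAA, bound by ATF4, was found in 0 of 27, against 2.69% in the table and 4.51% in all. The cyclic AMP pattern TGACGTCA was also found in 0 of 27, against 3.65% in the table and 2.03% in all. The E-box CACGTG was found in 4 of 27 (14.8%), against 11.8% in the table and 8.09% in all. The ZNF143 pattern was found in 2 of 27 (7.41%), against 5.10% in the table and 2.08% in all. No pattern contains another. Windows from 6 promoters are shown because they hold the NRF1 and ETS patterns in members of the outer membrane, the inner membrane and the intermembrane space, with the pattern in capitals and each written 5′ to 3′ along the gene's strand. Tomm20 (chr8:126945922-126945966, minus strand), Pam16 (chr16:4624947-4624986, minus strand) and Chchd4 (chr6:91473585-91473644, minus strand) carry the NRF1 pattern, which in Tomm20 and Chchd4 is read on the opposite strand. Tomm70a (chr16:57121609-57121666, plus strand), Mtx2 (chr2:74825762-74825811, plus strand) and Timm23 (chr14:32201907-32201964, minus strand) carry the ETS pattern, which in Timm23 is read on the opposite strand.
Tomm20: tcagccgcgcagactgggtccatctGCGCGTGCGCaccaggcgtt
Pam16: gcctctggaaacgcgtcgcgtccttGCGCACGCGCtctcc
Chchd4: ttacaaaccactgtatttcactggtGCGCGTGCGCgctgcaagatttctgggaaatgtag
Tomm70a: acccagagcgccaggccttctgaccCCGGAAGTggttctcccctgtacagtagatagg
Mtx2: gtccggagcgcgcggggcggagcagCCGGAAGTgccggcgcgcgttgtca
Timm23: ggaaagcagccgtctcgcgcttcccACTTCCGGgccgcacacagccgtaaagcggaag

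Import genes were expressed over a wide range in total RNA. FPKM, which scales reads to gene length and library size, was used to compare levels between genes. The gene lengths were not stated in the labels, and the order below rests on them. Hspa9, the matrix chaperone of the import motor, was highest at 149 ± 11.8 FPKM (SD over 8 libraries), above 96.4% of all genes in the table. Samm50, the barrel insertase, followed at 84.4 ± 11.02 FPKM, and then Tomm22, a presequence receptor, at 69.3 ± 14.99 FPKM, Timm23, the inner membrane channel, at 67.8 ± 10.5 FPKM, and Tomm6, a small TOM subunit, at 67.2 ± 13.6 FPKM. The last 3 lie within the spread of their libraries and their order is not resolved. Chchd4, the oxidoreductase of the disulfide relay, was lowest at 2.76 ± 1.87 FPKM, below Timm17a at 4.53 ± 0.670 FPKM and Tomm40l at 5.21 ± 2.04 FPKM. All 31 genes passed the filter for testing, a mean FPKM of at least 1, in both fractions.

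**Figure D1:**
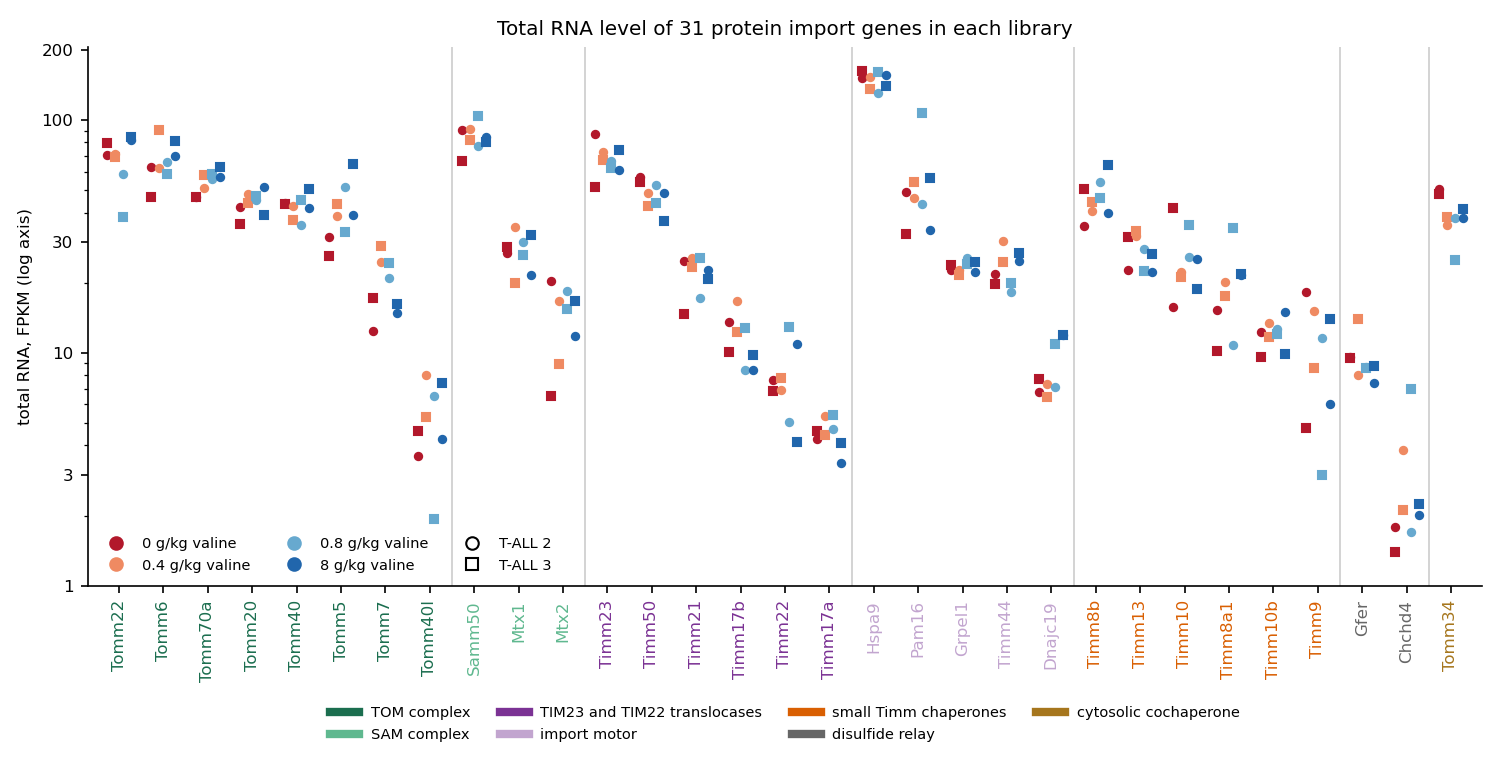
Total RNA level (FPKM, log axis) of each of the 31 import genes in each of 8 libraries, grouped by complex and ordered within it by mean level. Colours give the diet from 0 to 8 g/kg valine and shapes the T-ALL number. Hspa9 lies above all other members. The range over libraries differs between genes, with 21.6 to 25.5 FPKM for Grpel1 and 2.99 to 18.2 FPKM for Timm9.

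No import gene passed the test on any diet. With limma's moderated test on log2(FPKM + 0.5), 0 of 31 members had an adjusted p under 0.05 at 0 against 8 g/kg in total RNA (0% of 10054 genes tested were called), in RPF (0% of 9718) or in TE (0% of 9361). TE, translational efficiency, is the RPF log2 value minus the total RNA log2 value of the same diet and T-ALL number. The same count, 0 of 31, held on 0.4 and on 0.8 g/kg against 8 g/kg in all 3 quantities, with 0% of genes called in each. It also held for the trend over the 4 diets, where 0% of genes were called in total RNA, 0.0103% in RPF and 0% in TE. The trend is the slope per step along 8, 0.8, 0.4 and 0 g/kg, positive where lower valine goes with a higher value. The lowest adjusted p of any member was 0.372, for Timm21 in TE at 0 against 8 g/kg. Each diet was compared with the same 2 control libraries, so the 3 comparisons of a fraction are not independent.

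Counts at an unadjusted p under 0.05 are set beside the share of all genes tested that reached it. At 0 against 8 g/kg total RNA held 0 members higher and 1 lower, against 6.58% of all genes (2.57% higher, 4.02% lower). RPF held 3 members higher and 3 lower, against 7.17% of all genes (4.95% higher, 2.22% lower). TE held 3 members higher and 1 lower, against 6.58% of all genes (4.84% higher, 1.74% lower). The members higher in RPF were Timm21, Timm17b and Chchd4, none of which had a read in either control library. Those lower were Tomm6, Tomm7 and Mtx1. At 0.4 against 8 g/kg total RNA held 1 member higher and 1 lower, against 3.09% of all genes (1.59% higher, 1.5% lower). RPF held 1 member higher and 4 lower, against 6.67% of all genes (4.18% higher, 2.49% lower). TE held 1 member higher and 3 lower, against 6.68% of all genes (4.21% higher, 2.47% lower). The 4 lower in RPF were all small Timm genes. At 0.8 against 8 g/kg total RNA held 0 members higher and 1 lower, against 3.45% of all genes (1.31% higher, 2.14% lower). RPF held 2 members higher and 1 lower, against 5.58% of all genes (4.72% higher, 0.854% lower). TE held 2 members higher and 1 lower, against 6.23% of all genes (5.15% higher, 1.08% lower). Along the trend total RNA held 0 members higher and 3 lower, against 6.79% of all genes (3.08% higher, 3.71% lower). RPF held 2 members higher and 3 lower, against 5.97% of all genes (3.66% higher, 2.31% lower). TE held 2 members higher and 1 lower, against 5.94% of all genes (3.8% higher, 2.14% lower). The 3 lower in total RNA were Tomm5, Dnajc19 and Tomm70a. In total RNA 11 members lay above and 20 below the control diet, with a median log2 change of -0.09, against -0.04 over all genes tested, of which 45.9% were higher. On simulated data with known 4-fold changes at these depths, the test found 55.1% of 198 changed genes in total RNA and 0 of 193 in RPF, so the RPF comparison could miss changes of that size.

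In total RNA on 0 g/kg, the TOM complex, the entry gate, was the only class of several genes with every member on the same side. All 8 TOM genes had lower total RNA at 0 than on 8 g/kg, with a median log2 change of -0.28 and a range of -0.80 to -0.07. Over all genes tested, 45.9% were higher. In RPF the TOM and SAM genes together were split, with 5 higher and 6 lower. In 4 of the 8 both libraries on 0 g/kg lay below both on 8 g/kg, against 20.3% of all genes. None passed the test. The count below the control diet was 6 to 8 of 8 over the alternative settings, and it was 5 of 8 on 0.4 g/kg and 6 of 8 on 0.8 g/kg.

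Tomm5 (ENSMUSG00000078713, chr4:45105209-45108113), a small subunit that supports the pore, had the lowest log2 change of the class in total RNA at 0 against 8 g/kg. Its total RNA was 31.4 and 26.1 FPKM on 0 g/kg, 38.8 and 43.7 on 0.4 g/kg, 51.3 and 32.96 on 0.8 g/kg, and 39.1 and 64.9 on 8 g/kg. Both libraries on 0 g/kg were the lowest of all 8. The log2 change at 0 against 8 g/kg was -0.80 ± 0.30 (SE), with unadjusted p = 0.0249, adjusted p = 0.687, and the slope per step was -0.24 ± 0.09 (SE), with unadjusted p = 0.0205, adjusted p = 0.668. The change was -0.44 without T-ALL 3 on 8 g/kg and -1.17 without T-ALL 2 on 8 g/kg. In RPF it held 1 and 1 reads on 0 g/kg, 1 and 1 on 0.4 g/kg, 5 and 3 on 0.8 g/kg, and 0 and 1 on 8 g/kg, too few to give a direction.

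Tomm70a (chr16:57121714-57154530) encodes the receptor for carrier proteins and for precursors handed over by cytosolic chaperones. It had 46.6 and 46.6 FPKM on 0 g/kg, 51.1 and 58.1 on 0.4 g/kg, 55.8 and 58.8 on 0.8 g/kg, and 56.7 and 62.7 on 8 g/kg in total RNA. The values on 0 g/kg lay below all 6 others, and the 3 other diets overlapped. The log2 change at 0 against 8 g/kg was -0.35 ± 0.17 (SE), with unadjusted p = 0.0659, adjusted p = 0.795. In RPF it held 9 and 18 reads on 0 g/kg, 23 and 8 on 0.4 g/kg, 26 and 18 on 0.8 g/kg, and 7 and 8 on 8 g/kg, and the RPF log2 change of 0.22 ± 0.51 (SE) was smaller than its error.

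Tomm6 (chr17:47686645-47688386), which steadies the assembled complex, had 62.5 and 46.5 FPKM on 0 g/kg, 62.1 and 90.4 on 0.4 g/kg, 66.2 and 58.6 on 0.8 g/kg, and 70.01 and 81.2 on 8 g/kg in total RNA. Its RPF level was 53.5 and 42.7 FPKM on 0 g/kg, 108 and 87.6 on 0.4 g/kg, 55.2 and 97.2 on 0.8 g/kg, and 203 and 83.3 on 8 g/kg, so that both libraries on 0 g/kg were the lowest of all 8. Those RPF values rested on 5 and 4 reads on 0 g/kg, 16 and 6 on 0.4 g/kg, 12 and 12 on 0.8 g/kg, and 10 and 7 on 8 g/kg. The RPF log2 change at 0 against 8 g/kg was -1.44 ± 0.51 (SE), with unadjusted p = 0.0244, adjusted p = 0.607, beside -0.48 ± 0.23 (SE) in total RNA, with adjusted p = 0.806. The RPF change ran between -2.08 and -0.80 when a single library was left out.

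Tomm7 (chr5:23838944-23844145), the subunit that loosens the complex and helps retain the kinase PINK1 at the outer membrane, showed no such pattern in total RNA. It had 12.4 and 17.1 FPKM on 0 g/kg, 24.5 and 28.6 on 0.4 g/kg, 21.04 and 24.3 on 0.8 g/kg, and 14.8 and 16.1 on 8 g/kg. The libraries on 0.4 and 0.8 g/kg all lay above those on 0 and on 8 g/kg, with a log2 change of 0.76 ± 0.25 (SE) at 0.4 against 8 g/kg and unadjusted p = 0.0152, adjusted p = 1. In RPF it held 2 and 0 reads on 0 g/kg, 6 and 5 on 0.4 g/kg, 3 and 5 on 0.8 g/kg, and 2 and 6 on 8 g/kg, and the TE change at 0 against 8 g/kg was -3.90 ± 1.69 (SE), with unadjusted p = 0.0543, adjusted p = 0.757, with 1 of the 2 libraries on 0 g/kg at 0 reads. It was -1.001 without that library, T-ALL 3, and -6.80 without T-ALL 2 on 0 g/kg.

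Tomm22 (chr15:79670868-79672862), the central receptor, had the highest mean total RNA level of the TOM genes, close to that of Tomm6, with 70.4 and 79.5 FPKM on 0 g/kg, 71.3 and 69.6 on 0.4 g/kg, 58.6 and 38.3 on 0.8 g/kg, and 82.3 and 84.2 on 8 g/kg. Every low-valine library lay below both control libraries. Its largest log2 change was on 0.8 g/kg, -0.81 ± 0.21 (SE), with unadjusted p = 0.00461, adjusted p = 1, from 51 and 13 reads on 0.8 g/kg. The presequence receptor Tomm20 had 35.8 to 51.6 FPKM over all 8 libraries, and its groups overlapped.

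The pore protein Tomm40 (chr7:19701313-19715442) and its paralogue Tomm40l (chr1:171217802-171222514) differed in level. Tomm40 had 44.1 and 43.6 FPKM on 0 g/kg, 42.8 and 37.1 on 0.4 g/kg, 35.5 and 45.1 on 0.8 g/kg, and 41.7 and 50.6 on 8 g/kg in total RNA. Tomm40l had 3.605 and 4.60 FPKM on 0 g/kg, 8.02 and 5.28 on 0.4 g/kg, 6.53 and 1.94 on 0.8 g/kg, and 4.27 and 7.42 on 8 g/kg, so its highest library stayed below every library of Tomm40. In neither did the groups differ beyond the spread, with log2 changes at 0 against 8 g/kg of -0.07 ± 0.20 (SE) for Tomm40 and -0.43 ± 0.56 (SE) for Tomm40l. Tomm40l was read at most 2 times in any RPF library.

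Among the SAM genes, 1 of 3 lay above the control diet on 0 g/kg in total RNA. Samm50 (chr15:84192240-84216083) had 90.5 and 66.3 FPKM on 0 g/kg, 90.97 and 82.3 on 0.4 g/kg, 77.1 and 104 on 0.8 g/kg, and 84.2 and 80.5 on 8 g/kg, and its groups overlapped. Mtx2 (chr2:74825812-74876748), a partner of Samm50 on the cytosolic face, was the least abundant, with 20.4 and 6.54 FPKM on 0 g/kg, 16.6 and 8.94 on 0.4 g/kg, 18.5 and 15.5 on 0.8 g/kg, and 11.9 and 16.7 on 8 g/kg. On 0 g/kg its libraries lay further apart than at any other diet.

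Mtx1 (chr3:89209081-89213907), the other metaxin, had 26.7 and 28.3 FPKM on 0 g/kg, 34.7 and 19.9 on 0.4 g/kg, 30.01 and 26.3 on 0.8 g/kg, and 21.6 and 32.04 on 8 g/kg in total RNA, with overlapping groups. In RPF it held 3 and 0 reads on 0 g/kg, 8 and 1 on 0.4 g/kg, 5 and 12 on 0.8 g/kg, and 5 and 7 on 8 g/kg, or 20.6 and 0 FPKM on 0 g/kg, 34.6 and 9.37 on 0.4 g/kg, 14.7 and 62.3 on 0.8 g/kg, and 65.2 and 53.4 on 8 g/kg. Both libraries on 0 g/kg and both on 0.4 g/kg lay below both control libraries. The TE change at 0 against 8 g/kg was -4.26 ± 1.75 (SE), with unadjusted p = 0.0456, adjusted p = 0.736, and the RPF slope per step was -1.33 ± 0.44 (SE), with unadjusted p = 0.00942, adjusted p = 0.771. Without T-ALL 3 on 0 g/kg, which held 0 reads, the TE change was -1.52 and the slope -0.60, and without T-ALL 2 on 0 g/kg they were -7.00 and -1.84. Pooled over the pair of libraries, the RPF share of Mtx1 on 0 g/kg was 0.178 times that on 8 g/kg, from 3 reads on 0 g/kg and 12 on 8 g/kg (95% exact interval 0.0321 to 0.658, counting error only).

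The inner membrane machinery (TIM23, TIM22 and the motor, 11 genes) was split in total RNA on 0 g/kg, with 5 higher, 6 lower and a median log2 change of -0.01. The outer membrane machinery (TOM and SAM, 11 genes) had 1 higher, 10 lower and a median of -0.20. The median over all genes tested was -0.04. With voom on recovered reads the counts were 8 higher and 3 lower for the inner set, and 4 higher and 7 lower for the outer set. Without the T-ALL 3 library on 0 g/kg the inner set also had 8 higher and 3 lower, and the outer set 3 higher and 8 lower. The difference between the sets was not tested.

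**Figure D2:**
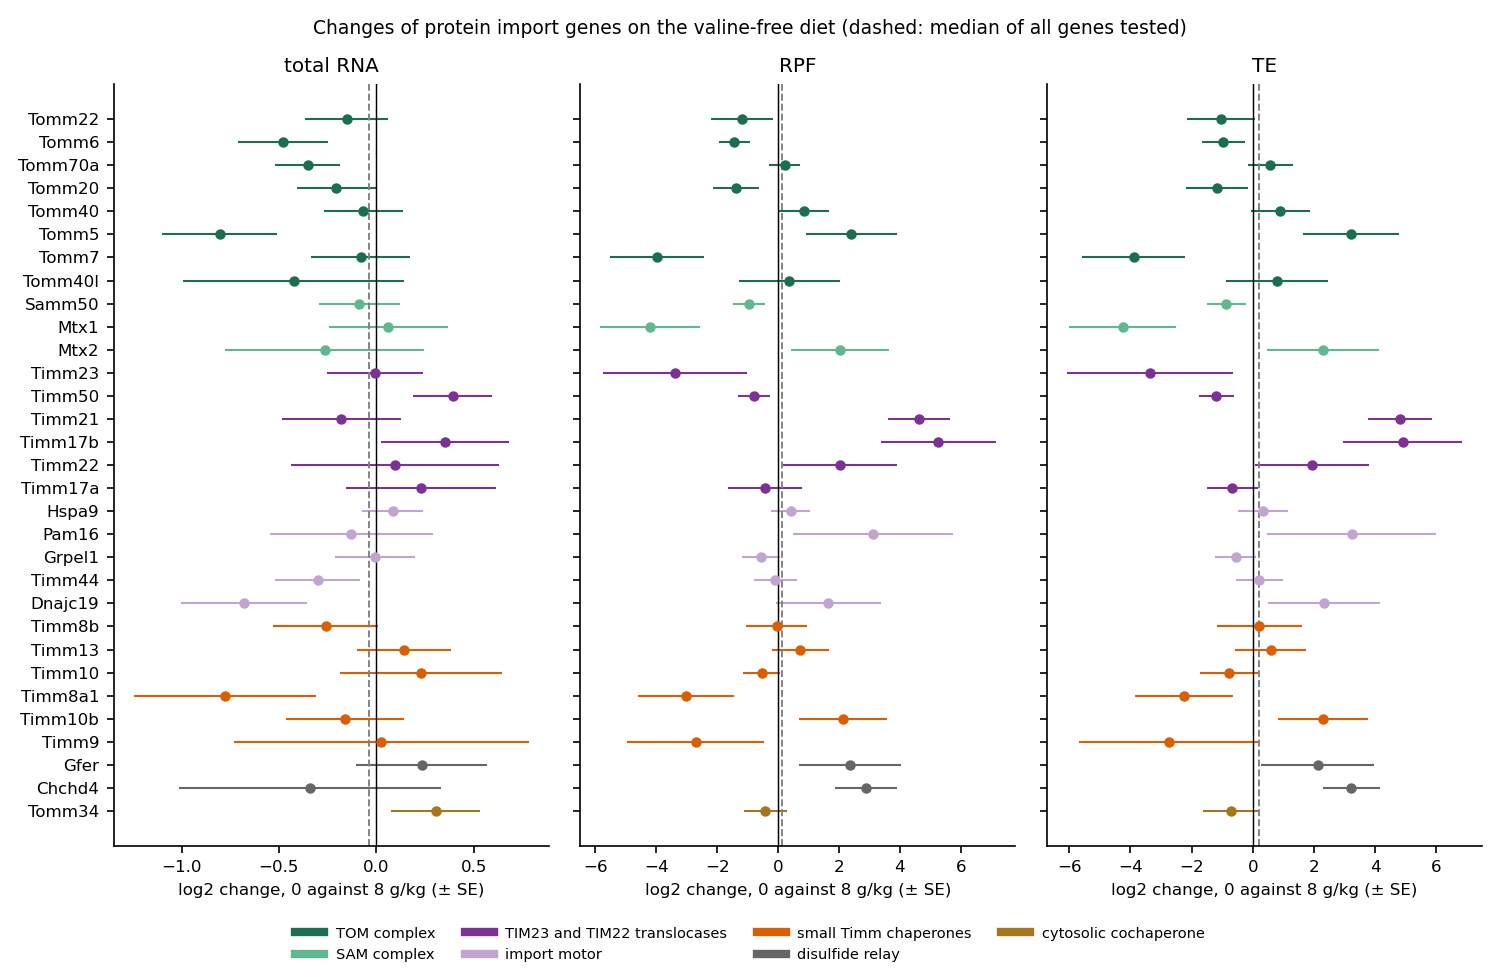
Log2 change at 0 against 8 g/kg valine of each import gene in total RNA, RPF and TE, with bars of 1 SE from limma; the dashed line is the median of all genes tested and the horizontal scales differ. All 8 TOM genes lie left of 0 in total RNA, whereas RPF and TE values scatter widely on both sides with long error bars, and none passed the test.

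Timm50 (chr7:28305516-28312046), the receptor that hands presequences to the TIM23 channel, had the lowest p of the members that were higher on 0 g/kg in total RNA. It had 57.1 and 54.1 FPKM on 0 g/kg, 48.5 and 42.5 on 0.4 g/kg, 52.3 and 44.2 on 0.8 g/kg, and 48.5 and 36.8 on 8 g/kg. Both libraries on 0 g/kg lay above all 6 others, with a log2 change of 0.39 ± 0.20 (SE) and unadjusted p = 0.0872, adjusted p = 0.823, and 0.19 to 0.59 when a single library was left out. Its RPF level was 73.3 and 36.5 FPKM on 0 g/kg, 78.6 and 39.99 on 0.4 g/kg, 37.8 and 44.3 on 0.8 g/kg, and 111 and 73.3 on 8 g/kg, from 10 and 5 reads on 0 g/kg, 17 and 4 on 0.4 g/kg, 12 and 8 on 0.8 g/kg, and 8 and 9 on 8 g/kg. The higher library on 0 g/kg was level with the lower control library, and both on 0.8 g/kg lay below the controls. The TE change at 0 against 8 g/kg was -1.19 ± 0.58 (SE), with unadjusted p = 0.0779, adjusted p = 0.804.

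Timm17a and Timm17b are alternative subunits of the TIM23 channel. Timm17a (chr1:135301535-135313737) had 4.24 and 4.64 FPKM on 0 g/kg, 5.33 and 4.43 on 0.4 g/kg, 4.72 and 5.43 on 0.8 g/kg, and 3.36 and 4.09 on 8 g/kg in total RNA, and Timm17b (chrX:7899336-7907652) had 13.6 and 10.1 FPKM on 0 g/kg, 16.7 and 12.3 on 0.4 g/kg, 8.45 and 12.8 on 0.8 g/kg, and 8.45 and 9.79 on 8 g/kg. The per-length level of Timm17b exceeded that of Timm17a in every library, although their reads were close in sum, 158 for Timm17b and 187 for Timm17a. The table's values imply lengths of 2175 bases for Timm17b and 6649 for Timm17a.

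In RPF, Timm17b held 4 and 4 reads on 0 g/kg, 0 and 4 on 0.4 g/kg, 1 and 2 on 0.8 g/kg, and 0 and 0 on 8 g/kg. The share from the 8 reads on 0 g/kg was 1.89-fold that of a floor of 3 reads over the control group, which held 0. This ratio takes the 8 reads as exact, so it is not a lower limit. The RPF log2 change of 5.26 depends on the pseudocount, with unadjusted p = 0.0250, adjusted p = 0.607, and the total RNA slope per step was 0.15 ± 0.10 (SE), with unadjusted p = 0.172, adjusted p = 0.812. Timm17a held 3 and 3 reads on 0 g/kg, 3 and 1 on 0.4 g/kg, 5 and 1 on 0.8 g/kg, and 4 and 2 on 8 g/kg, with no separation of 0 from 8 g/kg.

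Timm21 (ENSMUSG00000024645, chr18:84946191-84951530) links the TIM23 translocase to TOM and to respiratory complexes. In total RNA it had 24.7 and 14.7 FPKM on 0 g/kg, 25.6 and 23.4 on 0.4 g/kg, 17.1 and 25.4 on 0.8 g/kg, and 22.6 and 20.7 on 8 g/kg, with a log2 change of -0.18 ± 0.31 (SE) at 0 against 8 g/kg. In RPF it held 2 and 1 reads on 0 g/kg, 2 and 1 on 0.4 g/kg, 3 and 2 on 0.8 g/kg, and 0 and 0 on 8 g/kg. Every low-valine library held at least 1 read and both control libraries held none. Over all genes the control RPF libraries held 41848 and 71432 reads, against 58529 to 205545 on the low-valine diets. The TE change at 0 against 8 g/kg had the lowest p of any member, with unadjusted p = 0.00273, adjusted p = 0.372. Its size depends on the pseudocount and is not given, since the reads on 0 g/kg do not exceed the floor of 3.

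Timm23 (chr14:32180166-32201891), the channel, had the highest mean total RNA level of the TIM genes, with 86.9 and 51.4 FPKM on 0 g/kg, 73.1 and 67.4 on 0.4 g/kg, 66.6 and 62.2 on 0.8 g/kg, and 61.1 and 73.98 on 8 g/kg in total RNA. The groups overlapped, and the log2 change at 0 against 8 g/kg was -0.01 ± 0.25 (SE). It held 0 and 3 reads on 0 g/kg, 6 and 0 on 0.4 g/kg, 6 and 5 on 0.8 g/kg, and 1 and 8 on 8 g/kg in RPF, where the groups overlapped. Timm22, the channel for carriers, had 4.14 to 12.95 FPKM in total RNA and 0 to 2 RPF reads per library. On 0.4 g/kg all 6 TIM23 and TIM22 genes had higher total RNA than on 8 g/kg, with a median log2 change of 0.14, against -0.01 over all genes, and in 3 of 6 the groups did not overlap, against 18.4% of all genes. The count was 4 to 6 of the genes tested over the alternative settings.

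Hspa9 (chr18:34937414-34954351), the motor's ATPase, varied little between total RNA libraries, with 151 and 162 FPKM on 0 g/kg, 152 and 136 on 0.4 g/kg, 130.4 and 161 on 0.8 g/kg, and 156 and 139 on 8 g/kg. The log2 change at 0 against 8 g/kg was 0.08 ± 0.16 (SE). Its RPF libraries held 38 and 34 reads on 0 g/kg, 78 and 20 on 0.4 g/kg, 88 and 67 on 0.8 g/kg, and 7 and 49 on 8 g/kg. The lowest and the highest RPF level, 48.4 and 198 FPKM, were the 2 libraries on 8 g/kg, so no diet separated from the control.

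Dnajc19 (chr3:34057280-34081354), the J-domain protein that stimulates Hspa9, was the least abundant motor gene. It had 6.80 and 7.72 FPKM on 0 g/kg, 7.36 and 6.45 on 0.4 g/kg, 7.10 and 10.95 on 0.8 g/kg, and 11.9 and 11.9 on 8 g/kg in total RNA. All 6 low-valine libraries lay below both control libraries, with log2 changes of -0.68 ± 0.32 (SE) on 0 g/kg, -0.75 ± 0.32 (SE) on 0.4 g/kg and -0.41 ± 0.32 (SE) on 0.8 g/kg. The slope per step was -0.24 ± 0.10 (SE), with unadjusted p = 0.0339, adjusted p = 0.678. It held 0 and 1 reads on 0 g/kg, 4 and 0 on 0.4 g/kg, 0 and 0 on 0.8 g/kg, and 0 and 0 on 8 g/kg in RPF. In total RNA the groups on 0 and 8 g/kg also did not overlap for Timm44, the anchor of Hspa9 at the channel, with 21.8 and 19.8 FPKM on 0 g/kg and 24.7 and 26.8 FPKM on 8 g/kg. Grpel1, the nucleotide exchange factor, had 21.6 to 25.5 FPKM over all 8 total RNA libraries, the narrowest range of the motor genes. In RPF it was the motor gene whose libraries, 22.03 and 18.8 FPKM on 0 g/kg, lay below both controls, 23.9 and 38.5 FPKM on 8 g/kg, with a log2 change of -0.56 ± 0.63 (SE) and adjusted p = 0.830. Total RNA of Pam16, which restrains the J-domain protein, was 32.4 to 107 FPKM.

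The small Timm chaperones did not separate in total RNA. On 0 g/kg 3 of 6 were higher and 3 lower than on 8 g/kg, with a median log2 change of -0.07, and the class took 1.33 ± 0.0977 reads per 10000 on 0 g/kg, 1.43 ± 0.0699 on 0.4 g/kg, 1.44 ± 0.0938 on 0.8 g/kg and 1.40 ± 0.0474 on 8 g/kg (SD, n = 2 each). Timm8b (ENSMUSG00000039016, chr9:50603901-50605320) had the highest mean total RNA level, with 35.2 and 50.3 FPKM on 0 g/kg, 40.7 and 44.5 on 0.4 g/kg, 53.9 and 46.2 on 0.8 g/kg, and 39.8 and 63.9 on 8 g/kg. Its paralogue Timm8a1 (chrX:134537256-134541670), whose human counterpart is mutated in deafness-dystonia syndrome, had 15.2 and 10.2 FPKM on 0 g/kg, 20.1 and 17.5 on 0.4 g/kg, 10.8 and 34.2 on 0.8 g/kg, and 21.5 and 21.9 on 8 g/kg. Both Timm8a1 libraries on 0 g/kg lay below both control libraries, with a log2 change of -0.78 ± 0.47 (SE) and unadjusted p = 0.133, adjusted p = 0.853. Timm9 (chr12:71123172-71136708), which forms hexamers with Timm10, was the least abundant, with 18.2 and 4.74 FPKM on 0 g/kg, 15.1 and 8.63 on 0.4 g/kg, 11.6 and 2.99 on 0.8 g/kg, and 6.01 and 14.00 on 8 g/kg from 1 to 15 reads a library.

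In RPF the class was low on 0.4 g/kg. It held 16 and 7 reads on 0 g/kg, 3 and 2 on 0.4 g/kg, 18 and 17 on 0.8 g/kg, and 7 and 11 on 8 g/kg. Its share was 1.44 ± 0.782 reads per 10000 on 0 g/kg, 0.278 ± 0.0908 on 0.4 g/kg, 1.176 ± 0.424 on 0.8 g/kg and 1.61 ± 0.0939 on 8 g/kg (SD, n = 2 each). Both libraries on 0.4 g/kg lay below the other 6, but with 3 and 2 reads each was at or under the floor of 3 reads. The pooled share on 0.4 g/kg was 0.158 times that on 8 g/kg, from 5 reads on 0.4 g/kg and 18 on 8 g/kg (95% exact interval 0.0459 to 0.442, counting error only), while the pooled ratio was 0.907 on 0 g/kg (0.469 to 1.78) and 0.687 on 0.8 g/kg (0.379 to 1.29). On 0 g/kg the 2 libraries lay on either side of the controls.

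At 0.4 against 8 g/kg 5 of the 6 genes were lower in RPF, and 4 had an unadjusted p under 0.05, against 2.49% of all genes in that direction. These 4, Timm8b, Timm13, Timm8a1 and Timm10, were singled out after their values were seen. Timm8b held 2 and 1 reads on 0 g/kg, 0 and 0 on 0.4 g/kg, 1 and 3 on 0.8 g/kg, and 1 and 1 on 8 g/kg. Timm13 (chr10:80899450-80900969), which pairs with Timm8 proteins, held 4 and 3 reads on 0 g/kg, 0 and 0 on 0.4 g/kg, 2 and 4 on 0.8 g/kg, and 1 and 2 on 8 g/kg. Timm8a1 held 1 and 0 reads on 0 g/kg, 0 and 0 on 0.4 g/kg, 0 and 0 on 0.8 g/kg, and 2 and 1 on 8 g/kg, and Timm10 (chr2:84827021-84830213) 6 and 2 reads on 0 g/kg, 2 and 1 on 0.4 g/kg, 6 and 5 on 0.8 g/kg, and 2 and 6 on 8 g/kg. On 0.4 g/kg the groups lay below the control without overlap in 4 of 6 genes, against 12.7% of all genes. The lowest adjusted p was 0.445, for Timm8b. The class median log2 change of -3.88 depends on the pseudocount, -5.59 with 0.1 and -3.16 with 1, and 4 of the 6 genes held 0 reads on 0.4 g/kg and at most 3 on 8 g/kg. No fold is given for those 4, since both groups are at or under the floor. Timm10b, a partner of the small Timm hexamers at TIM22, had 9.57 to 14.97 FPKM in total RNA and held 0 to 9 reads per RPF library.

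**Figure D3:**
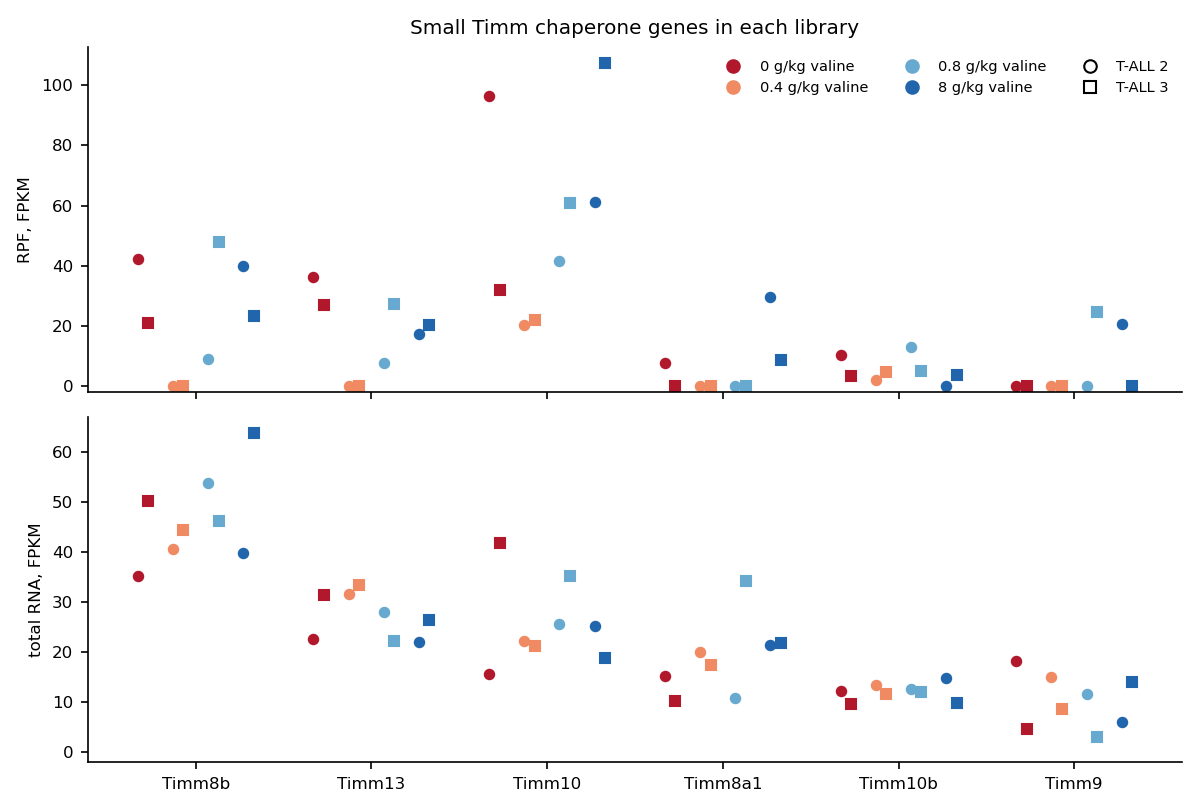
FPKM of the 6 small Timm chaperone genes in each library, RPF above and total RNA below, with colours for the diet and shapes for the T-ALL number. On 0.4 g/kg Timm8b, Timm13, Timm8a1 and Timm9 are at 0 in both RPF libraries, whereas all 4 were detected in both total RNA libraries there.

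Of the disulfide relay, Gfer (chr17:24693190-24696156), the sulfhydryl oxidase, had 9.57 and 9.51 FPKM on 0 g/kg, 8.06 and 14.03 on 0.4 g/kg, 8.67 and 8.57 on 0.8 g/kg, and 7.39 and 8.76 on 8 g/kg in total RNA, and Chchd4 (chr6:91464276-91473423), which it reoxidises, had 1.78 and 1.39 FPKM on 0 g/kg, 3.82 and 2.11 on 0.4 g/kg, 1.70 and 7.01 on 0.8 g/kg, and 2.02 and 2.24 on 8 g/kg. Both Chchd4 libraries on 0 g/kg were below both controls, from 4 and 2 reads on 0 g/kg, against 8 and 6 reads on 8 g/kg. Chchd4 held 1 and 1 reads on 0 g/kg, 0 and 0 on 0.4 g/kg, 1 and 1 on 0.8 g/kg, and 0 and 0 on 8 g/kg in RPF, so its RPF difference at 0 against 8 g/kg, with unadjusted p = 0.0241, adjusted p = 0.607, rests on 2 reads. Without the filter on mean FPKM the adjusted p was 0.0469, and in no other setting run did a member pass.

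Tomm34 (chr2:164053538-164071178), a cytosolic cochaperone that keeps precursors unfolded, had 50.3 and 48.2 FPKM on 0 g/kg, 35.5 and 38.2 on 0.4 g/kg, 38.05 and 25.1 on 0.8 g/kg, and 38.00 and 41.6 on 8 g/kg in total RNA. Both libraries on 0 g/kg lay above all 6 others, with a log2 change of 0.30 ± 0.23 (SE) and unadjusted p = 0.215, adjusted p = 0.880. Its RPF libraries held 5 and 5 reads on 0 g/kg, 10 and 4 on 0.4 g/kg, 10 and 10 on 0.8 g/kg, and 7 and 3 on 8 g/kg, with overlapping groups.

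As shares of all reads, the outer membrane machinery took 8.47 ± 0.448 total RNA reads per 10000 on 0 g/kg, 9.24 ± 0.237 on 0.4 g/kg, 9.08 ± 0.0392 on 0.8 g/kg and 9.52 ± 0.469 on 8 g/kg (SD, n = 2 each). The pair on 0 g/kg lay below every other library. The inner membrane machinery took 8.84 ± 0.0434 on 0 g/kg, 8.39 ± 0.582 on 0.4 g/kg, 8.39 ± 0.968 on 0.8 g/kg and 8.26 ± 0.178 on 8 g/kg. There the pair on 0 g/kg lay above both controls. The difference between 0 and 8 g/kg was 0.586 reads per 10000, and 0.163 without Hspa9. Pooled over libraries, the outer share on 0 g/kg was 0.903 times that on 8 g/kg (95% exact interval 0.836 to 0.976) and the inner share 1.07 times (0.986 to 1.15), counting error only.

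In RPF the outer membrane machinery took 6.77 ± 0.782 reads per 10000 on 0 g/kg, 9.09 ± 0.525 on 0.4 g/kg, 6.80 ± 0.944 on 0.8 g/kg and 10.3 ± 3.05 on 8 g/kg. The control libraries, at 12.4 and 8.12, lay further apart than those of any other diet. The inner membrane machinery took 8.52 ± 0.795 on 0 g/kg, 7.94 ± 0.838 on 0.4 g/kg, 8.00 ± 1.82 on 0.8 g/kg and 9.11 ± 3.75 on 8 g/kg, again with the widest spread on 8 g/kg.

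All 31 genes together took 17.6 ± 0.963 RPF reads per 10000 on 0 g/kg, 17.999 ± 1.29 on 0.4 g/kg, 16.7 ± 3.45 on 0.8 g/kg and 22.0 ± 0.272 on 8 g/kg (SD, n = 2 each). Every one of the 6 low-valine libraries, at 14.3 to 19.2, lay below both control libraries, at 22.2 and 21.8. Summed as FPKM, the 6 low-valine libraries, at 672 to 1006.96, also lay below both controls, at 1169 and 1007.27. The highest of them, T-ALL 3 on 0.8 g/kg, was nearly level with T-ALL 3 on 8 g/kg. Red cell markers also lay below both controls in all 6: in RPF they held 0.498 and 2.53 reads per 10000 on 0 g/kg, 2.63 and 4.27 on 0.4 g/kg, and 2.82 and 2.34 on 0.8 g/kg, against 4.30 and 17.1 on 8 g/kg, and their part in the lower share was not tested. The same genes took 19.9 ± 0.302 total RNA reads per 10000 on 0 g/kg, 20.1 ± 0.811 on 0.4 g/kg, 19.9 ± 0.933 on 0.8 g/kg and 20.2 ± 0.422 on 8 g/kg, with overlapping libraries. The RPF share divided by the total RNA share was 0.745 to 0.935 in the 6 low-valine pairs of libraries, against 1.12 and 1.07 on 8 g/kg. The pooled RPF share was 0.801 times the control on 0 g/kg (95% exact interval 0.673 to 0.954), 0.836 times on 0.4 g/kg (0.710 to 0.986) and 0.730 times on 0.8 g/kg (0.627 to 0.853), counting error only. The difference was not tested between diets: an exact permutation test of 2 against 2 libraries cannot give a two-sided p below 0.333. The mean share was lowest on 0.8 g/kg, the highest of the low-valine doses.

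**Figure D4:**
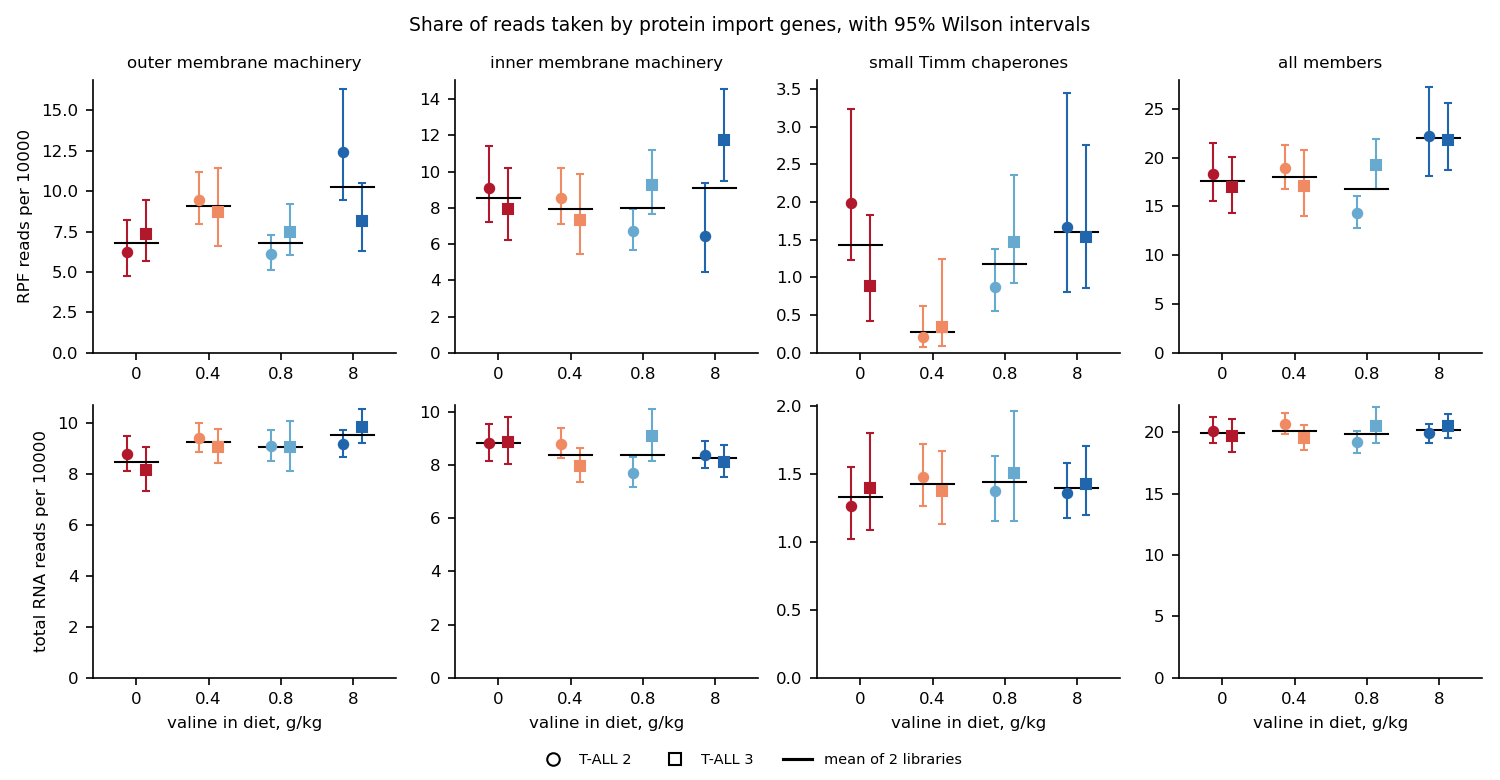
Reads per 10000 taken by the outer membrane machinery, the inner membrane machinery, the small Timm chaperones and all 31 genes in each library, RPF above and total RNA below, with 95% Wilson intervals (counting error only) and the mean of each diet as a line. All 6 low-valine RPF libraries lie below both controls for the 31 genes together, and the small Timm share is lowest on 0.4 g/kg.

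Other genes of the import pathway were taken from 5 further lists, whose 47 genes were all in the table, and none passed the test in any comparison. In total RNA at 0 against 8 g/kg, 4 of 7 tested other import factors were higher and 3 lower, with a median log2 change of 0.11, and the lowest p belonged to Oxa1l, the inner membrane insertase, at -0.66 ± 0.27 (SE), with adjusted p = 0.702, and Grpel2, a paralogue of Grpel1, at 1.26 ± 0.52 (SE), with adjusted p = 0.708. Of 6 presequence processing genes 3 were higher and 3 lower, led by the intermediate peptidase Mipep at -0.68 ± 0.31 (SE) and the inner membrane peptidase Immp1l at 0.71 ± 0.52 (SE). Of 11 matrix chaperonins and proteases 7 were higher and 4 lower, led by Hspe1, the cochaperonin, at -0.18 ± 0.14 (SE), and Clpx, the unfoldase of the Clp protease, at 0.24 ± 0.23 (SE).

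Of 10 carriers that TIM22 inserts, 4 were higher and 6 lower in total RNA on 0 g/kg. The lowest p belonged to the ADP/ATP carrier Slc25a5 at -0.28 ± 0.13 (SE) and the aspartate-glutamate carrier Slc25a13 at 0.55 ± 0.28 (SE). Of 12 twin-cysteine proteins that the disulfide relay oxidises, 3 were higher, 8 lower and 1, Coa4, had 0 reads at both diets, with a median log2 change of -0.31, against -0.04 over all genes. Cox19, a copper chaperone for cytochrome oxidase, had the lowest p, at -1.82 ± 0.73 (SE), with adjusted p = 0.702, followed by the cytochrome oxidase subunit Cox6b1 at -0.39 ± 0.17 (SE).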

How the data were processed

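Total RNA and ribosome-protected fragments of sorted T-ALL cells were sequenced in 16 libraries. The authors deposited a table of FPKM values for 12012 genes, of which 7 have no symbol. Per the submitters' processing notes the build was mm10 (GRCm38) and the tools were STAR 2.5.0c, Bowtie2 2.3.4, cutadapt 1.18 and edgeR 3.14.0. Their order, any filter and the FPKM formula were not stated in the labels. Reads were recovered from the steps of the FPKM values: 100% of 149988 values above 0 came within 0.02 reads of a whole number. In a simulated table the recovery was exact for 97.7% of 11954 genes.

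Groups follow the labels' diet and fraction. Deposited FPKM were taken as log2(FPKM + 0.5). Genes whose mean FPKM reached 1 were tested with limma 3.58.1 (R 4.3.3), a moderated test with a mean-variance trend. Benjamini-Hochberg adjustment ran over all genes tested, with a threshold of 0.05. The pseudocount understates the change of low genes that have reads in every library. Where a library holds 0 reads, it sets the size of the change, which can be large. The small Timm median in RPF at 0.4 against 8 g/kg was -3.88, and -2.08 with voom on recovered reads. Each low-valine diet was set against 8 g/kg, and a slope was fitted over all diets. TE used the difference of paired fractions. Shares of reads carry 95% Wilson intervals and ratios 95% exact intervals (Python 3.11.15, scipy 1.17.1). These and the floor of 3 reads cover counting error only, since reads without molecular identifiers are not independent molecules. At the floor, 3 reads correspond to at most 0.717 reads per 10000 in an RPF library.

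Values in every library are given for the 2 members per direction with the lowest unadjusted p in each quantity at 0 against 8 g/kg and in the trend, for the most and least abundant member of each class, and for paralogue pairs. From each further list the 2 genes with the lowest p in total RNA are named. Members and lists were chosen with earlier results of these data known. The fits were tested on simulated data. Alternatives were other pseudocounts (0.1 and 1), no filter or a mean FPKM of at least 5, median centring, voom on recovered reads, thinning to equal depth, leaving out single libraries, and the T-ALL number as a block. That number was not taken as pairing. Deviations of same-numbered libraries correlated at -0.04 to 0.25 in total RNA and at -0.02 to 0.07 in RPF over 6 pairs of diets. For 0 with 8 g/kg in total RNA the value was 0.21. Counting error weakens such correlations, so they cannot exclude pairing.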

Additional observations from a re-analysis of the deposited data

How the results depend on the processing

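No member passed the test under any alternative run, with 1 exception: RPF at 0 against 8 g/kg without the filter on mean FPKM, where Chchd4 passed (1 member, adjusted p = 0.0469 by limma) on 2 reads. Leaving out any single library left 0 members past the test in every comparison. With the T-ALL number as a replicate block 0 members passed in each comparison, the lowest adjusted p by limma was 0.648 in total RNA and 0.665 in RPF at 0 against 8 g/kg, and the block changed no other member's call. The inner membrane share in total RNA at 0 against 8 g/kg differed by 0.586 reads per 10000, and by 0.163 without the most abundant member, Hspa9. The small Timm share in RPF at 0.4 against 8 g/kg differed by -1.33, by -1.45 without mitochondrially encoded and the 10 most abundant genes, and by -0.826 without the most abundant member, Timm10. The median of the inner membrane genes in total RNA at 0 against 8 g/kg was -0.01, and 0.09 with voom and 0.17 without T-ALL 3 on 0 g/kg. Of the class medians of log2 changes recomputed under alternatives, 130 moved by more than the spread between libraries and 338 did not.

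Calls over all genes moved more. In RPF the count was 0 for each diet and 47 at 0, 18 at 0.4 and 64 at 0.8 against 8 g/kg without the filter. For total RNA at 0 against 8 g/kg it was 0, and 3 with voom, 2 after thinning, 2 without T-ALL 2 on 0 g/kg, 1 without T-ALL 3 on 0 g/kg and 1 without T-ALL 2 on 8 g/kg. At 0.4 against 8 g/kg it was 0, and 1 after thinning. For the total RNA trend it was 0, and 18 with voom, 2 after thinning, 2 with a pseudocount of 1, 2 without T-ALL 2 on 0.4 g/kg and 5 without T-ALL 3 on 0.8 g/kg. For RPF at 0 against 8 g/kg voom gave 6 and thinning 1, and for TE thinning gave 2. Leaving out T-ALL 3 on 0 g/kg gave 56 calls in RPF, and leaving out T-ALL 2 on 0.8 g/kg gave 28 in total RNA at 0.8 against 8 g/kg. The RPF trend had 1 call, against 4 with voom and 0 with the block, with a pseudocount of 0.1, without the filter, with a mean FPKM of at least 5, with median centring and without any single library. The cause was not tested. RPF depth, 41848 to 205545 reads per library, limits every RPF value of a single member.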
